A study of Homo sapiens with 3 samples.

Results

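Genes for giant cytoskeletal and scaffold proteins held several of the highest counts of RNA recovered with CTCF, a zinc-finger protein best known for binding DNA and shaping chromatin loops. The group was given by name as 9 genes: the plakins DST, PLEC and MACF1, the spectrins SPTAN1 and SPTBN1, the filamin FLNA, the myosin heavy chain MYH9, the scaffold AHNAK and the dystrophin relative UTRN. Of these 9, 8 were among the 17201 genes of the deposited table and MACF1 was not. The genes were chosen by family and by their PAR-CLIP counts in this table, several of which were among the highest, so their counts and ranks are given as a description, with no test.

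The measurement was made in U2OS, a human osteosarcoma cell line, by PAR-CLIP. In this method cells take up the nucleoside 4-thiouridine, ultraviolet light links the labelled RNA to proteins that touch it, and the RNA that stays with the immunoprecipitated protein is sequenced. All samples received 400 µM 4-thiouridine for 16 to 24 h and 400 mJ/cm2 of light at 365 nm, and CTCF was precipitated from nuclear lysate. The labels name 3 samples: 2 biological replicates made with different lots of the anti-CTCF antibody ab70303, and a merge of their sequencing data, which is the 1 sample analysed here. There was thus 1 condition and no replicate value, and RNA recovered with another antibody, or the RNA level in these nuclei, was not analysed here. Every interval printed after a count or a count per kb is an exact 95% Poisson interval. Those printed for a ratio of 2 genes are exact 95% binomial ones, and both kinds cover counting error only. Ratios to a median of other genes, and of the highest to the lowest, have no interval.

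These proteins carry mechanical load and hold networks together. Plakins join actin, microtubules and intermediate filaments to each other and to cell junctions. Spectrin tetramers of alpha and beta chains line membranes, filamins crosslink actin, and non-muscle myosin II pulls on it. Utrophin ties actin to the dystroglycan complex at the membrane, and AHNAK is a very large scaffold found at the membrane and elsewhere in the cell. In connective-tissue cells such proteins are abundant in stress fibres and adhesions.

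The deposited table gives 1 whole-number count for each Ensembl gene over an interval of the hg19 genome, unscaled for depth or length. The counts ran from 6 to 6801 with a median of 31 and summed to 1322047. Protein-coding genes, 12220 of those listed, had a median count of 43 and a median of 1.54 counts per kb of interval. Intervals include introns, so a count per kb of interval is not a density along the mature mRNA. As a check of the cell line, 7 of 10 osteosarcoma and mesenchymal markers were listed with a median count of 260, from FN1 at 1277 down to ALPL, an osteoblast enzyme, at 8, while COL1A2, TWIST1 and S100A4 were not. Of 8 keratinocyte markers 2 were listed (KRT10 at 11 counts and KRT14 at 8), of 8 striated muscle markers 2 (TNNT1 at 20 and ACTA1 at 10), and of 8 blood markers 0. What share of all annotated protein-coding genes was listed was not computed, so these numbers compare the marker lists only. Per kb, the listed markers had medians of 9.97 (osteosarcoma and mesenchymal), 2.09 (keratinocyte) and 2.36 (striated muscle). Not every single marker followed this order. ALPL and RUNX2 had 0.116 and 0.749 counts per kb, against 2.46 for KRT10, 1.72 for KRT14 and 3.51 for ACTA1. The other mesenchymal markers listed ran from 6.76 for CD44 to 39.6 for VIM.

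The 8 listed genes together held 21127 counts, or 1.60% of the summed count (exact 95% binomial interval 1.58 to 1.62%). Their median was 1804.5 counts over a median interval of 105 kb. Of the 8 genes, 6 had 1000 counts or more, against 0.320% of all listed genes and 0.409% of protein-coding genes. That share was part of how the group was chosen, and nothing is read from it. All 8 had 100 counts or more, against 26.1% of protein-coding genes. The group was nevertheless wide, since its highest count was 53.9 times its lowest and its highest count per kb was 232 times its lowest.

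**Figure D1:**
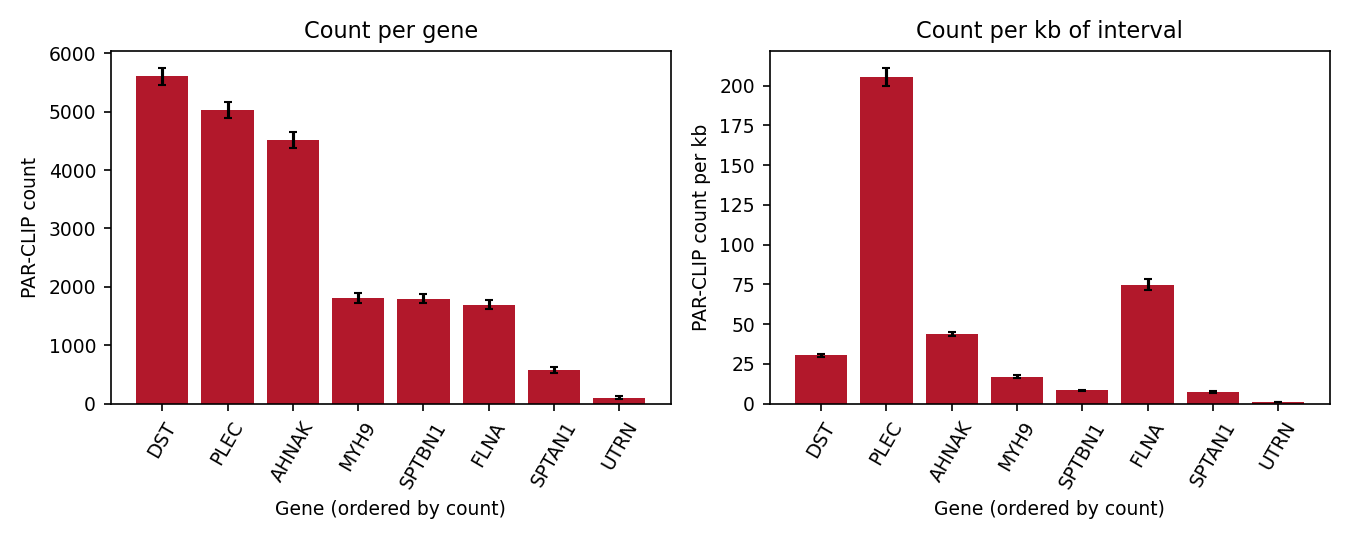
The left bars show the PAR-CLIP count of each listed gene and the right bars the count per kb of its interval, in the merged sample, with exact 95% Poisson intervals as error bars. DST, PLEC and AHNAK stand highest by count, at 5606, 5026 and 4514, whereas PLEC at 206 and FLNA at 74.7 stand highest per kb.

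Because several of these genes have more than 1 annotated start, the 250 bases before their starts were read from RefSeq (GRCh38.p14) and searched for CCCTC, the letters from which CTCF takes its name, on both strands. The counts are of RNA over hg19 gene intervals and say nothing of binding at these windows, so a match is a description of sequence only. DST, the gene with the highest count of the group, is shown with its 3 starts because they differ in composition, and SPTBN1 with the start that held the most matches. The counted DST interval is shorter than the RefSeq gene, and the outermost DST start lies beyond that interval. Whether the other DST starts lie within it was not tested, since no coordinates were converted. Capitals mark CCCTC or its reverse complement GAGGG, and each sequence runs 5′ to 3′ in the direction of the gene.
DST at chr6:56954831-56955080, minus strand: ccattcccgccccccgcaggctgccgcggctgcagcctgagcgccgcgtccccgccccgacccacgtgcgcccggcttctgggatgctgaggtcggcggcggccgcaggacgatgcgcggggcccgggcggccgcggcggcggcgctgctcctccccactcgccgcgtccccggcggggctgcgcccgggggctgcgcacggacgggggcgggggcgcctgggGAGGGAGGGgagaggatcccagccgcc
DST at chr6:56851906-56852155, minus strand: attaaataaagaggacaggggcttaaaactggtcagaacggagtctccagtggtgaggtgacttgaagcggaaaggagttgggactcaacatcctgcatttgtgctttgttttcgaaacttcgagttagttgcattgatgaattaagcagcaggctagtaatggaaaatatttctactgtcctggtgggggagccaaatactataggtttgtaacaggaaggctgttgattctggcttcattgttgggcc
DST at chr6:56642890-56643139, minus strand: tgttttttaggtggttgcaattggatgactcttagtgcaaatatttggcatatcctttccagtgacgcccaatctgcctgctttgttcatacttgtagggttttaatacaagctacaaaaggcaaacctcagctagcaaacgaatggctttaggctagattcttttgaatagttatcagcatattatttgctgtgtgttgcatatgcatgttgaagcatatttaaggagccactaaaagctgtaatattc
SPTBN1 at chr2:54456077-54456326, plus strand: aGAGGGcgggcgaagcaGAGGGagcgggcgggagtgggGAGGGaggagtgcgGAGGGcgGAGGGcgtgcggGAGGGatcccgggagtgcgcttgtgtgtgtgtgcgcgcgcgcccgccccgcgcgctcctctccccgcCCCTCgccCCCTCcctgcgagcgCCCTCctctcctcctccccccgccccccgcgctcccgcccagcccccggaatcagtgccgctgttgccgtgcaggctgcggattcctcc
The outermost DST start was 82.8% G or C, with 39 CpG dinucleotides and 2 overlapping matches. The other 2 DST starts were 44.0% and 37.6% G or C, with 4 and 2 CpGs and no (0) match. At SPTBN1 the window was 77.2% G or C and held 9 matches, 6 of them as GAGGG. No window was found for PLEC, whereas MACF1, which has no count, gave 3 windows with 0, 3 and 3 matches. Over the 14 windows found for 8 of the 9 genes, MACF1 among them, 11 windows (78.6%) held a match. The share was 74.3% of the 14136 windows of listed protein-coding genes and 66.6% of all 35116 windows of this length. The share among these genes was thus near that of protein-coding genes in general. Windows of AHNAK, FLNA, MYH9 and SPTAN1, each with a single start, held 3, 3, 1 and 2 matches and were between 70.0% and 79.2% G or C.

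Among the plakins, DST and PLEC had the 2 highest counts of any protein-coding gene. DST encodes dystonin, which links intermediate filaments and microtubules to adhesion sites. It had 5606 counts (5460 to 5755) over 185 kb of chromosome 6 (56322785 to 56507794, hg19), or 30.3 per kb. This was rank 2 of all listed genes by count, but rank 677 per kb. Set beside the 200 protein-coding genes nearest to it in interval length, which had a median of 121.5 counts, DST was 46.1 times that median and ranked 1 of 201. The next gene in that group was PRKDC, for a DNA repair kinase of very large size, with 1541.

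The DST interval did not span the whole gene. In RefSeq, DST-AS1, an antisense gene, lies inside DST, whereas in the table it began 201 kb beyond the end of the DST interval. DST-AS1 had 237 counts (208 to 269) over 20.1 kb, or 11.8 per kb. Reads from that outer stretch of DST are not in its 5606 counts, and which of the overlapping genes the RNA at DST-AS1 came from cannot be told apart where the use of strand is not given.

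PLEC encodes plectin, which links intermediate filaments to actin, microtubules and adhesion sites. It had 5026 counts (4888 to 5167) over 24.4 kb of chromosome 8 (144989321 to 145013758), or 206 per kb, with a counting interval of 200.0 to 211 per kb. No other gene of the group was as dense: per kb PLEC was 2.75 times FLNA (2.61 to 2.91), the next. It ranked 3 by count and 61 per kb among all listed genes, and 3 per kb among protein-coding genes. Its count was 127 times the median of 39.5 among genes of similar length, where LIMA1, for an actin-binding protein, came next with 529. Like that of DST, the PLEC interval was shorter than the gene as RefSeq now annotates it.

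MACF1, a plakin that joins microtubules to actin, had no row in the table. The lowest listed count was 6. Why MACF1 was not listed was not tested, and no level can be given. Between NDUFS5 and PPIEL, which are the nearest listed genes on either side of MACF1 in the RefSeq order, 2 other identifiers were listed. ENSG00000255103, annotated as protein-coding and without a symbol here, had 130 counts (109 to 154) over 6.004 kb, or 21.7 per kb. ENSG00000226438, annotated as antisense, had 14 counts over 7.81 kb. RNA from this stretch of chromosome 1 was therefore recovered, under identifiers other than that of MACF1. Where a listed interval lay inside another, the inner count never exceeded the outer (0 of 2435 pairs). Whether ENSG00000255103 lies inside the hg19 interval of MACF1 was not tested.

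The remaining plakins serve mainly the junctions and cornified layers of epithelia. DSP, for the desmosomal protein desmoplakin, had 114 counts (94.0 to 137) over 45.1 kb, or 2.53 per kb. Per kb, PLEC was 81.4 times DSP (67.6 to 98.9), and for DST the interval of the same ratio ran from 9.97 to 14.6 times. EPPK1, PPL and EVPL were not listed, so 3 of the 7 plakins had a value.

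**Figure D2:**
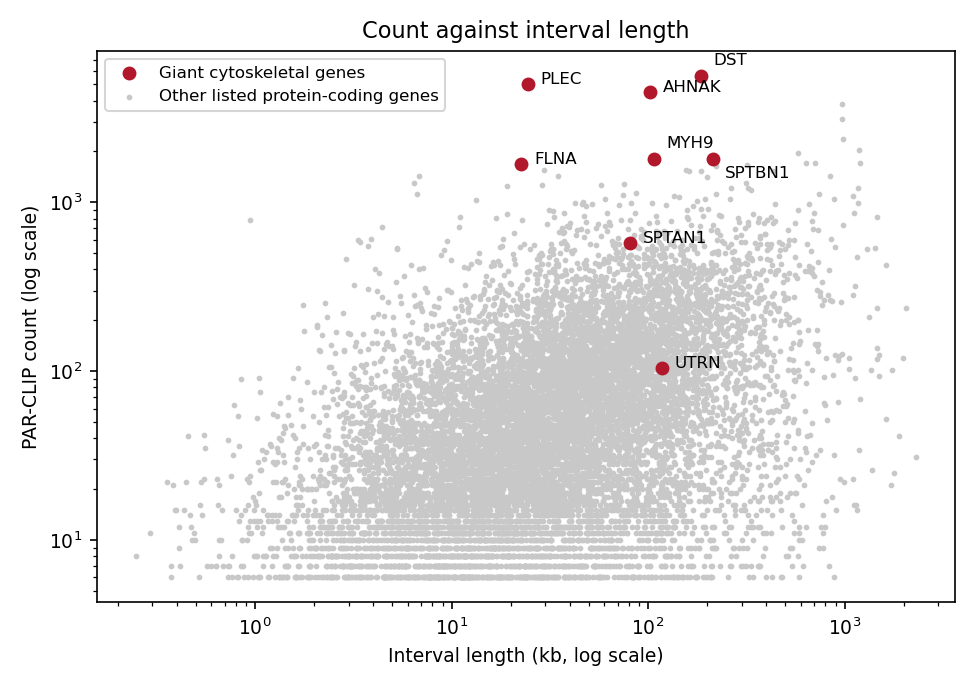
Each point is a listed protein-coding gene of the merged sample, placed by its interval length in kb and its PAR-CLIP count, both on log scales, with the giant cytoskeletal genes in red and the others in grey. DST, PLEC, AHNAK, MYH9, SPTBN1 and FLNA lie above the 200 genes nearest to them in length, SPTAN1 lies near the upper edge at 574 counts, and UTRN lies in the middle of the cloud at 104.

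AHNAK encodes a scaffold built mostly of repeats and bound by the annexin A2 and S100A10 complex. It had 4514 counts (4383 to 4648) over 103 kb of chromosome 11 (62201016 to 62303579), or 44.0 per kb, at rank 4 by count and 444 per kb. Its count was 45.4 times the median of 99.5 among genes of similar length. The next in that set was ACTN1, an alpha-actinin gene, at 986. Its relative AHNAK2 had 393 counts (355 to 434) at 11.8 per kb, and AHNAK was 3.72 times as dense (3.36 to 4.14). The internal repeats and the similarity of AHNAK to AHNAK2 leave the placing of some reads uncertain, since the handling of reads with several matches is not given. The partners ANXA2 and S100A10 had 566 and 98 counts, at 11.1 and 8.54 per kb.

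MYH9, the heavy chain of non-muscle myosin IIA, had 1810 counts (1728 to 1895) over 107 kb of chromosome 22 (36677327 to 36784063), or 17.0 per kb. It ranked 11 by count and 1323 per kb. Among genes of similar length it was 21.5 times the median of 84, again directly above ACTN1. Its paralogs for the IIB and IIC chains had fewer counts over intervals that were longer: MYH10 had 317 (283 to 354) and MYH14 had 33 (22.7 to 46.3). Per kb, MYH9 was 8.37 times MYH10 (7.43 to 9.47) and 62.5 times MYH14 (44.3 to 91.1).

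Of 9 myosin heavy chains of muscle, 7 were listed with a median of 44 counts, close to the median of 43 for protein-coding genes. MYH13, an extraocular muscle chain, stood apart at 491 counts (449 to 536), or 6.55 per kb, and it overlaps an antisense gene with 122. MYH8 had 81, MYH3 had 61 and MYH4, the lowest, had 34. MYH8 and MYH4 both overlap ENSG00000214970, an antisense gene with 252 counts, and sequence shared among these paralogs makes their counts uncertain. Among the light chains and regulators of myosin II all 8 were listed, with a median of 228.5 and 5 of the 8 at 100 counts or more, against 26.1% of protein-coding genes. ROCK2 and ROCK1, kinases that activate the motor, had 556 and 446 counts. PPP1R12A, for a phosphatase subunit that opposes them, had 291, and the light chain gene MYL9 had 20. Listed genes that overlap PPP1R12A had 62 counts in all and those that overlap MYL9 had 164, so both values may be shared.

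Both spectrin chains of non-erythroid cells were listed, at close densities. SPTBN1, for the beta-II chain, had 1799 counts (1717 to 1884) over 213 kb of chromosome 2 (54683422 to 54896812), or 8.43 per kb, at rank 12 by count and 2672 per kb. SPTAN1, for the alpha-II chain that pairs with it, had 574 counts (528 to 623) over 81.1 kb of chromosome 9 (131314869 to 131395941), or 7.08 per kb, at rank 211 by count and 3135 per kb. By count SPTBN1 was 3.13 times SPTAN1, yet per kb it was 1.19 times (1.08 to 1.31). SPTBN1 ranked 1 of 201 among genes of similar length, with 13.8 times their median and ANKRD11 next at 1631. SPTAN1 ranked 4 of 201 in its own set, at 7.00 times the median of 82, between TASOR2 with 697 and NAA25 with 560.

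The other spectrins examined had fewer counts. SPTB, the erythroid beta chain, had 49 counts at 3.15 per kb, above the protein-coding medians of 43 and 1.54, and SPTBN5 had 31 at 0.675 per kb, over an interval shared with other listed genes. SPTBN4 was not listed, so 4 of 5 had a value. Of the partners that anchor spectrin to membranes and actin, all 10 ankyrin, adducin and protein 4.1 genes were listed. Their median count of 83.5 was above the 43 of protein-coding genes, and their median of 0.754 per kb was below the 1.54. EPB41L3 had 167, EPB41L1 had 151, ANK2 had 102 and ANK1, the lowest, had 9.

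FLNA, the main filamin of non-muscle cells, had 1694 counts (1614 to 1777) over 22.7 kb of chromosome X (153576892 to 153599571), or 74.7 per kb. It ranked 16 by count and 231 per kb, and 1 of 201 among genes of similar length, at 39.9 times their median of 42.5. DDX17, a helicase gene, was next there with 789. FLNC, the filamin best known from muscle, had 1262 counts (1193 to 1334) at 43.7 per kb, and FLNA was 1.71 times as dense (1.59 to 1.84). The FLNC interval overlaps FLNC-AS1, which had 382. The alpha-actinins, which also crosslink actin, had 986 counts for ACTN1, 531 for ACTN4 and 20 for the muscle gene ACTN2, and ACTN3 was not listed.

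UTRN had by far the lowest count of the listed group. It encodes utrophin, the counterpart of dystrophin outside mature muscle fibres. It had 104 counts (85.0 to 126) over 117 kb of chromosome 6 (144606837 to 144724320), or 0.885 per kb (0.723 to 1.07), at rank 3360 by count and 11937 per kb. Among the 200 genes of similar length it ranked 94 of 201, at 1.10 times the median of 94.5, next to RELCH at 106 and RERG at 103. Its density lay below the 1.54 per kb that was the median of protein-coding genes. ENSG00000225311, an antisense gene inside the interval, had 14 counts, so up to 13.5% of the UTRN count may be shared. The UTRN interval is also much shorter than the gene in RefSeq, so that the value covers a part of the gene only.

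In the rest of this system, DMD itself was not listed and DRP2, a relative, had 13 counts. Of 12 genes of the dystroglycan complex 10 were listed, with a median of 54 counts, above the 43 of protein-coding genes, and a median of 0.365 per kb, below their 1.54. SNTB2, a syntrophin, had 152 counts, and listed genes that overlap it, VPS4A among them, had 160 in all. The dystrobrevins DTNB and DTNA had 128 and 111, and SSPN had 8.

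By count the order within the group was DST, PLEC, AHNAK, MYH9, SPTBN1, FLNA, SPTAN1 and UTRN. DST exceeded PLEC by 1.12 times (1.07 to 1.16) and PLEC exceeded AHNAK by 1.11 times (1.07 to 1.16). MYH9, SPTBN1 and FLNA could not be ordered, since the ratio of MYH9 to SPTBN1 was 1.01 (0.942 to 1.07) and that of SPTBN1 to FLNA 1.06 (0.993 to 1.14). Per kb the order became PLEC, FLNA, AHNAK, DST, MYH9, SPTBN1, SPTAN1 and UTRN. In that order each gene differed from the next beyond counting error. The smallest step was that from SPTBN1 to SPTAN1, and the greatest was from SPTAN1 to UTRN, at 8.00 times (6.48 to 9.95).

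Apart from UTRN, little of these counts could be shared with other listed genes. DST, PLEC, AHNAK, MYH9 and FLNA overlapped no (0) listed gene. SPTBN1 contains 2 antisense genes, SPTBN1-AS1 with 34 counts and SPTBN1-AS2 with 8, which together equal 2.33% of its count. SPTAN1 shares 2 bases with DYNC2I2, which had 16.

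In 4 of the 8 cases no listed protein-coding gene within 1 Mb was as dense as the gene itself, against 9.07% of all listed protein-coding genes that have such neighbours. The genes were chosen on their counts, so nothing is read from this share. PLEC, at 206 per kb, stood over 48 such genes with a median of 2.98 and a maximum of 31.1 at CPSF1. FLNA, at 74.7, had 40 neighbours with a median of 2.20 and a maximum of 14.5 at FAM50A. DST, at 30.3, had 7 neighbours with a median of 2.51 and a maximum of 6.85 at BAG2. MYH9, at 17.0, had 16 neighbours with a median of 1.26 and a maximum of 15.0 at ELFN2. In the other 4 cases at least 1 neighbour was denser. AHNAK at 44.0 came after UBXN1 at 50.04, SPTBN1 ranked 3 of 15 behind RPS27A at 29.8, SPTAN1 ranked 5 of 37, and UTRN ranked 7 of 11.

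**Figure D3:**
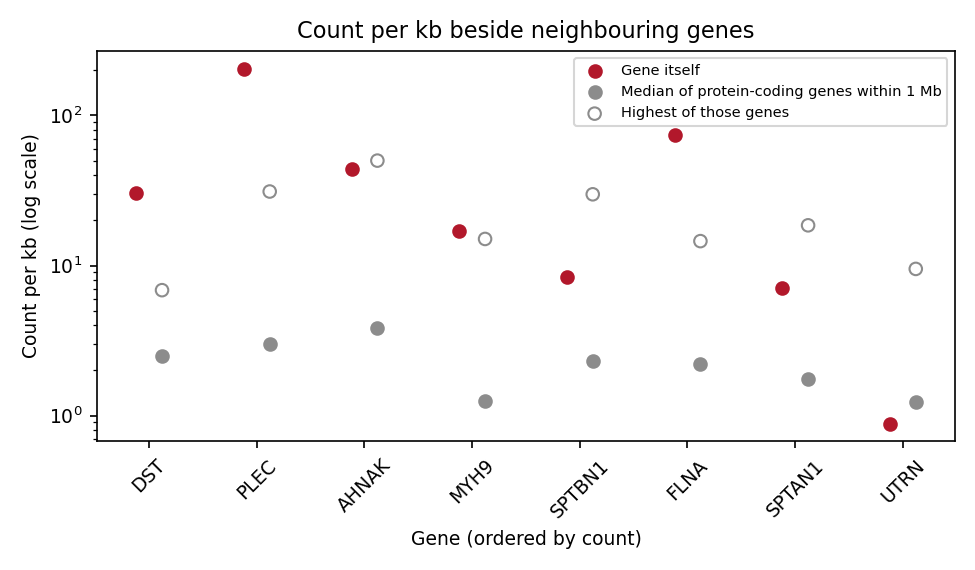
Filled red points give the count per kb of each listed gene of the group, filled grey points the median over listed protein-coding genes within 1 Mb of it, and open points the highest of those genes, on a log scale. DST, PLEC, MYH9 and FLNA lie above every neighbour, and UTRN at 0.885 lies below the median of its 10 neighbours, 1.24.

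Other large or filament-linked proteins were examined for comparison. The 8 cytoskeletal genes had medians of 1804.5 counts and 23.6 per kb, against 647 counts and 4.24 per kb for 14 genes of other giant proteins, all of which were listed. Most of these serve outside the cytoskeleton, as ubiquitin ligases or repair factors, but DYNC1H1, the heavy chain of the microtubule motor dynein, with 863 counts, does not. Both sets were chosen with results of these data known, so this difference was not tested. PRKDC had 1541, UBR4 1093, BIRC6 1046 and TRRAP, over an interval of 12.5 kb, had 51. The 4 giant proteins of striated muscle examined were lower, with a median of 74.5 counts and 0.218 per kb. NEB had 140, TTN 86, RYR2 63 and RYR1 20. The nesprins and their partners connect the nucleus to the cytoskeleton. Among them SYNE1 had 687 counts at 1.33 per kb and SYNE2 had 563 at 1.51, while SUN2, SUN1 and SYNE3 had 83, 46 and 12. The SYNE2 interval overlaps ESR2, which had 244, and listed genes that overlap SUN2 had 110 in all.

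Genes that tie actin to integrins had a median of 99.5 over all 8, with VCL for vinculin at 645, TLN1 for talin at 500 and TNS1 at 186, and TNS3 lowest at 11. Genes of intermediate filament proteins, nuclear lamins among them, had a median of 67 over 7 of 8 genes. KRT8 had 206, LMNB1 195 and KRT18 146, and NES was lowest at 15. KRT8 and KRT18 overlap each other. With the 8 chosen genes left out, 14 of the 16 family lists had a median above the 43 of protein-coding genes. The spectrins, at 40, and the dystrophin family, at 13, did not. The plakins, filamins and dystrophin family then held 1 listed gene each, and the muscle myosins stood at 44. Per kb, with the chosen genes kept, 11 of the 16 medians lay above the protein-coding 1.54. Below it were the spectrin partners, dystrophin family, dystroglycan complex, nesprins with their partners and giant muscle proteins.

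**Figure D4:**
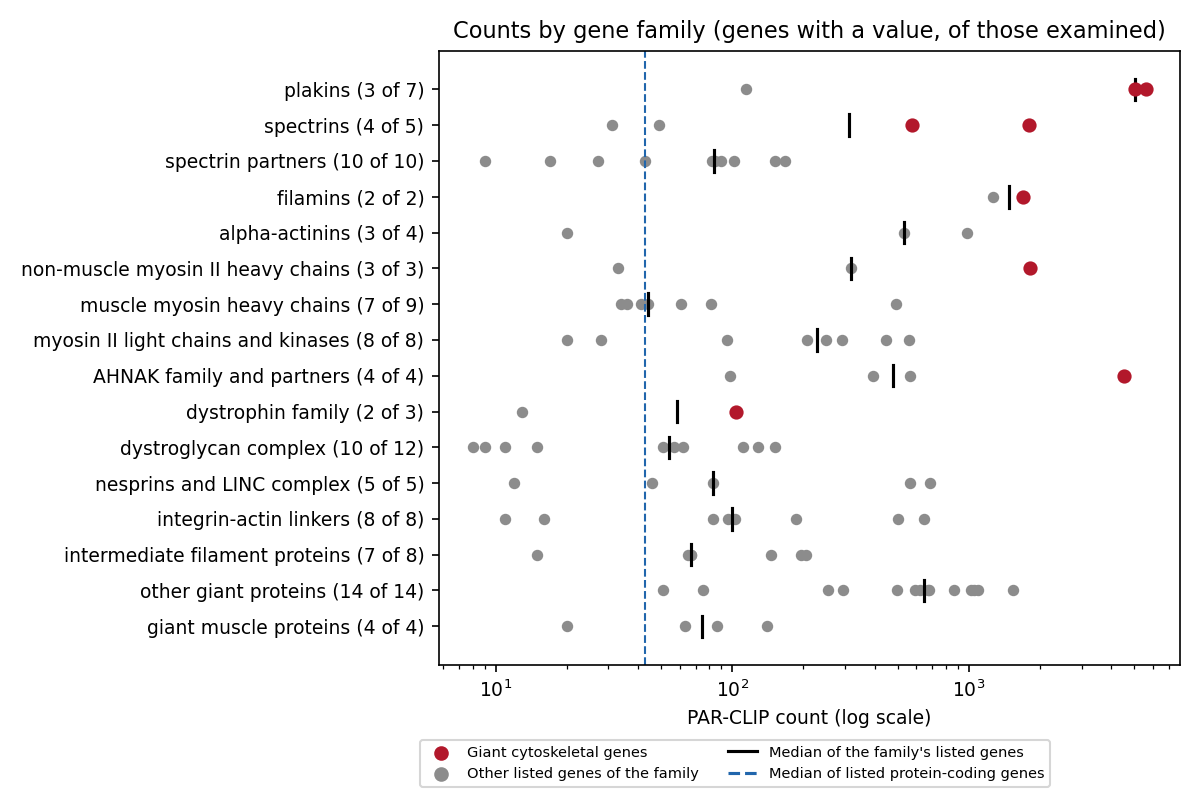
Each point is the PAR-CLIP count of a listed gene on a log scale, with rows for the gene families and, in brackets, how many genes of each list had a value. Giant cytoskeletal genes are red, other genes grey, black bars are family medians and the dashed line is the median of 43 for protein-coding genes. In each of the 6 rows that hold a red point, a red point is the highest.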

How the data were processed

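RNA recovered with CTCF by PAR-CLIP was analysed in 1 merged sample of U2OS cells. The deposited values are whole-number counts per Ensembl gene. The authors merged the sequencing data of both replicates, per the labels. Build hg19, Bowtie and bedtools are named, per the submitters' processing notes. Their versions and roles, the use of strand and the treatment of duplicate or multiply placed reads were not given in any label or header. The lowest count is 6. Among 2435 pairs of nested intervals the inner count never exceeded the outer (0 pairs), and 7014 genes overlap another, so reads in such places may be counted more than once. The summed count is not the library size.

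Symbols were found for 16520 of 17201 identifiers. Counts, counts per kb of interval, ranks and places among the 200 protein-coding genes nearest in length were computed in Python 3.11.15 with pandas 2.3.3 and SciPy 1.17.1, and the code was tested on simulated data. Exact Poisson and Clopper-Pearson intervals (95%) cover counting error only, since PCR reads without molecular identifiers are not independent molecules. No test between groups was possible. RefSeq for GRCh38.p14 served for gene order, gene extent (an interval under 80% of the RefSeq gene length was called shorter) and start sequences, and no coordinates were converted. Genes named in the text are the 9 genes of the group, listed genes that overlap them, all listed genes of small families and otherwise the 3 highest and the lowest of each family, and the genes directly above and below each in its length set. The genes, lists and rules were chosen with earlier results of these data known. Some genes of these families are not reported here. DYNC1H1, the markers named, the start windows and the genes within 1 Mb were added after the counts were seen.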

Additional observations from a re-analysis of the deposited data

How the results depend on the processing

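Ranks depended on length. Among the 100 highest of all 17201 listed genes were 6 of the group by count but 1 per kb, PLEC. Per kb among all listed genes, all 8 ranks moved beyond the range that counting error allows. Per kb among protein-coding genes alone, PLEC ranked 3, FLNA 32, AHNAK 82, DST 154 and MYH9 384. SPTBN1, SPTAN1 and UTRN ranked 1076, 1366 and 8293 there. By count among protein-coding genes all 8 ranks changed, 6 of them by 1 place, SPTAN1 to 196 and UTRN to 3041. Among genes without overlaps 5 moved beyond that range, all upward. Taking away every count of an overlapping gene put SPTAN1 at 231 in place of 211 and UTRN at 3910 in place of 3360, both within that range, and changed no other rank. The number with 1000 counts or more was 6, and 3 at a threshold of 2000. Above 95% of genes of similar length were 7 of the group with 100, 200 or 400 such genes and without overlapping genes. By its definition few genes can hold such a place. Since the group was chosen on its counts, nothing is read from this number or from that among the 100 highest. Families with a median above that of protein-coding genes numbered 16, 15 at a minimum of 10 counts or without overlaps, and 11 per kb; with the chosen genes left out, a choice made after seeing the data, they numbered 14. Counts per kb of coding length were not run, since protein lengths were not used here. Leaving out a replicate was not run because the merged table holds no value per replicate. No paired analysis was possible because both replicates had been merged before counting. Depth limits genes near the lowest count of 6, and the group's order where intervals of ratios include 1. Elsewhere the order is set against counting error only, and how it varies between replicates was not tested.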
